A study of Mus musculus with 4 samples.

Results

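The 9 genes described here make and place the lipids of the skin barrier, and they were followed through the open chromatin around them. They are Abca12, Alox12b, Aloxe3, Cers3, Pnpla1, Abhd5, Ugcg, Smpd1 and Cyp4f39. Peaks of 4 ATAC-seq libraries were merged into an atlas of 82641 regions, and the regions that overlapped a gene body or the 25 kb on either side of it were kept. This gave 75 regions, of which 5 lay in the windows of both Alox12b and Aloxe3. This rule used no measured value. In the values below, replicate 1 of a genotype stands before replicate 2, and 4 values in a row are those of WT 1 and 2 and then of Mapk8-KO 1 and 2. All coordinates are on the mouse build mm10.

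ATAC-seq uses the Tn5 transposase to insert sequencing adapters where chromatin is open, so that a pile of sequenced fragments marks an accessible site. Keratinocytes were sorted as EpCam+ CD49f-hi cells from the skin of female C57BL/6 mice of 8 to 12 weeks, after 8 days of a cream with 5% imiquimod (Aldara) that inflames the skin. All libraries came from treated mice, and the labels name whole skin as the source. Of these, 2 were from WT mice and 2 from Mapk8-KO mice, which carried Mapk8 fl/fl alleles and a Cre recombinase under the human keratin 14 promoter, so the deletion was directed to cells that use that promoter. Controls were littermates per the study's methods, and whether the WT mice carried floxed alleles is not given in the labels. The study describes 2 independent samples per group. Nothing in the labels says whether each library held cells of 1 mouse or of several. The tests thus measure only the spread between these libraries, which may be technical in part. Mapk8 encodes JNK1, a kinase best known for phosphorylating c-Jun, and c-Jun pairs with Fos proteins in the transcription factor AP-1.

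The water barrier of the skin lies in its outermost layer, where stacked sheets of ceramides, cholesterol and fatty acids fill the space between dead cells. CERS3 joins a sphingoid base to a very long fatty acid, CYP4F39 hydroxylates the end of such fatty acids, and PNPLA1, helped by ABHD5, attaches linoleate to that end. UGCG adds glucose to ceramides, ABCA12 carries these glucosylceramides into lamellar granules, and SMPD1 releases ceramide from sphingomyelin. The lipoxygenases encoded by Alox12b and Aloxe3 then oxidise the linoleate, a step needed to bind the lipids to the cell envelope. Loss of several of these genes causes ichthyosis in people. These proteins act mainly in the upper, differentiating layers, whereas CD49f, the integrin used for the sort, is highest on cells of the basal layer.

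The lists held 49856 to 69927 peaks, and the depth recovered from peak summits relative to WT 1 was 0.691 for WT 2, and 1.12 and 0.644 for the Mapk8-KO pair. Replicate 2 was thus the shallower library of each genotype. The promoter of Mapk8 itself was open in all libraries, between percentiles 69.2 and 87.7 of fold enrichment, which checks nothing about the deleted exons. Among marker genes, a promoter region was called in all 4 libraries for 4 of 7 basal keratinocyte genes, 3 of 5 suprabasal genes, 1 of 2 endothelial genes, 2 of 3 fibroblast genes and 3 of 4 melanocyte genes. At least 1 library had a promoter region for all 7 basal genes and for all suprabasal genes except Flg. The leukocyte genes Ptprc, Cd3e, Itgam and Cd207, and Cdh5, Col3a1 and Tyr, had none. The region counted for the melanocyte gene Pmel overlapped a TSS of the neighbour Cdk2, so it cannot be assigned to Pmel alone. The promoter regions of the melanocyte genes Dct, Mlana and Pmel ranked between percentiles 59.1 and 94.2, and that of Pecam1 between percentiles 61.8 and 90.2. The part of such cells in the results was not tested.

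Most of the open regions around the barrier lipid genes were called in both genotypes. Of the 75 regions, 43 (57.3%) were called in all 4 libraries, against 48.6% of the atlas. A further 13 were called in 3 libraries, 8 in 2 and 11 in 1. Of the 13 regions called in 3 libraries, 8 were missing from Mapk8-KO 2 and 5 from WT 2, the shallow libraries, and none from a deep one. Over the atlas, 63.1% of such regions were missing from Mapk8-KO 2. Of the 8 regions called in 2 libraries, 7 were those called in both replicate 1 libraries only (9.33%, against 7.91% of the atlas). The 11 regions called in 1 library had small summits, of 9 to 31 fragments, and 4 of them were in WT 1, 3 in WT 2, 3 in the deeper and 1 in the shallower Mapk8-KO library.

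By position, 22 regions were promoter regions, at most 2 kb from an annotated transcription start site (TSS), 26 were intronic, 9 exonic and 18 intergenic. For 51 of the 75 the nearest TSS belonged to 1 of the 9 genes. The others belonged by this measure to neighbours, such as Per1 and Hes7 beside Aloxe3 or Adamts17 beyond Cers3. The regions were a median 485 bp wide (410 bp over the atlas) and 49.8% G or C (49.4%). Those called in all libraries had a median fold percentile of 58.0, against 63.2 over the atlas. A fold here is the summit pileup over the local background as the peak caller gave it, and its percentile is taken within the library's own list, because folds of libraries of different depth are not on one scale.

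**Figure D1:**
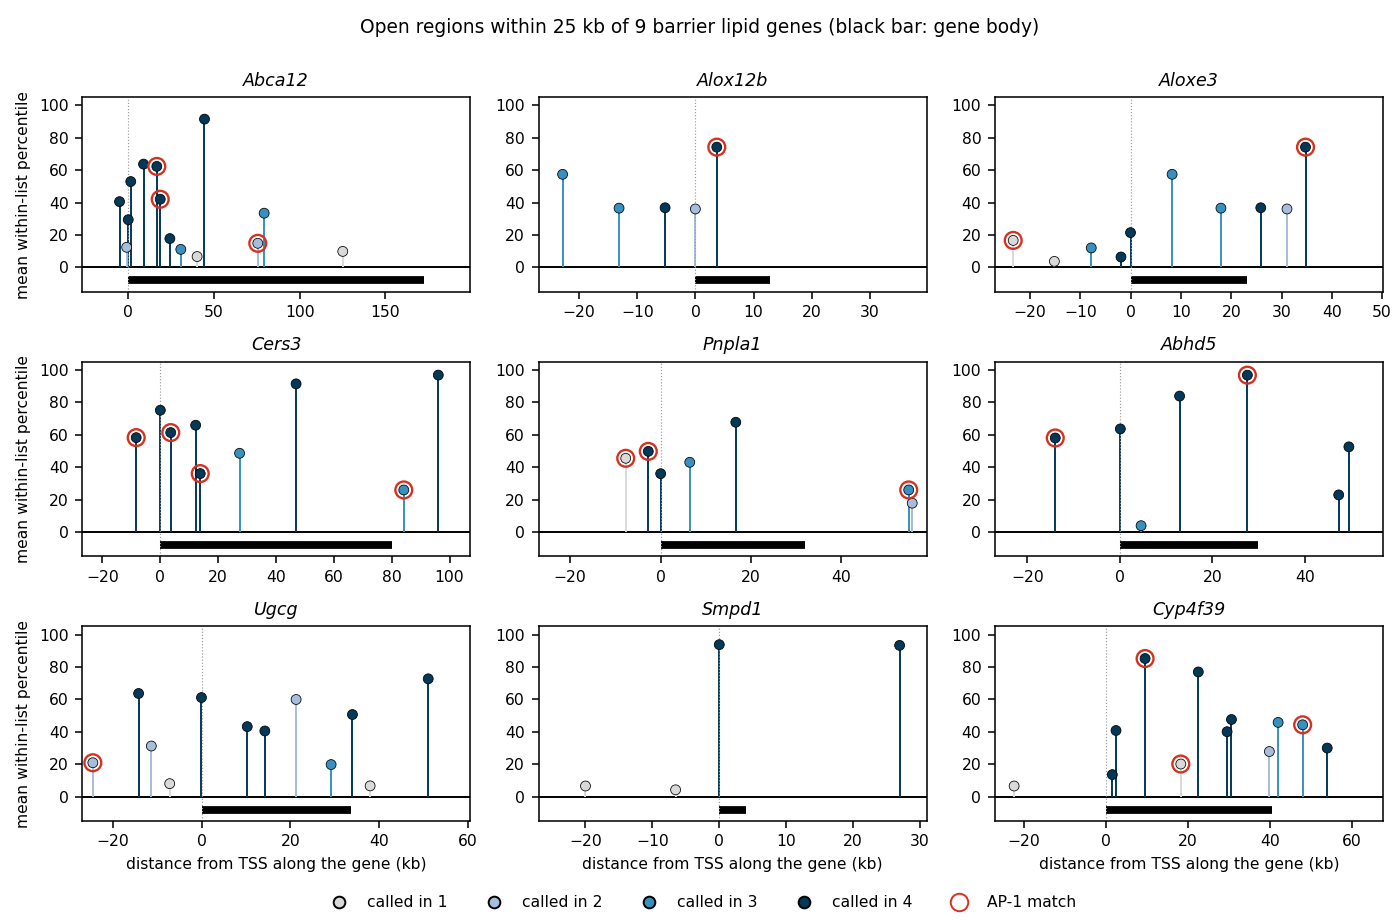
Open regions around the 9 genes. The horizontal axis is the distance from the TSS along the gene in kb, the vertical axis the percentile of fold enrichment averaged over the libraries that called the region, the colour the number of libraries and a red ring an AP-1 match. Abca12 has 14 regions with a peak of accessibility 44.4 kb into the gene, and Smpd1 has only 4.

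Of the 75 regions, WT libraries called 68 and 55 and Mapk8-KO libraries 66 and 49. The deeper library of each genotype called more, and the 2 genotypes overlapped. The means were 61.5 ± 9.19 for WT and 57.5 ± 12.0 for Mapk8-KO (SD, n = 2 each, two-sided exact permutation p = 0.667). With 2 libraries against 2 the smallest p this test can give is 0.33, so no such comparison could pass 0.05. The difference of 4 regions turned to -4.5 without Mapk8-KO 2, to -2.5 without WT 1 and to -0.5 over gene bodies alone.

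With all 4 lists as deposited, few regions were genotype-specific. One of the 75 (1.33%) was WT-specific, meaning that each WT list and neither Mapk8-KO list held a peak there, and 2.17% of the atlas was. No region (0 of 75) was Mapk8-KO-specific, against 1.65% of the atlas. The WT-specific region lay at chr17:28913889-28914265, 55.7 kb from the Pnpla1 TSS and past the gene's end, 1059 bp from a TSS of the transcript 4930539E08Rik. Its summit held 16 fragments in WT 1 and 10 in WT 2, with folds of 5.43 and 4.34, at percentiles 28.0 and 7.63 of their lists. The call was thus among the weaker ones of both libraries, and it was lost when a peak had to cover 50% of a region. The counts moved with the lists. Lists of equal length held 3 regions specific to WT and 2 specific to Mapk8-KO. With 1 library left out there were up to 9 WT-specific regions (without Mapk8-KO 1) and up to 5 Mapk8-KO-specific ones (without WT 1). The region is shown because it was the only genotype-specific one in the full lists. The 201 bases around its strongest summit, chr17:28913991-28914191 on the plus strand, hold 1 KLF match, in capitals:

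Pnpla1 WT-specific region: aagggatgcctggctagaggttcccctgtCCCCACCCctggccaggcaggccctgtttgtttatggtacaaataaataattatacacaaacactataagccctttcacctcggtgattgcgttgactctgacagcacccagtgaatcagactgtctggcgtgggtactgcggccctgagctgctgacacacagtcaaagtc

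The promoters covered the whole range of accessibility. Smpd1, the sphingomyelinase gene, had the most open one, at chr7:105554085-105554842, with folds of 13.6 and 14.1 in WT and 14.5 and 14.3 in Mapk8-KO. It stood at percentiles 91.8, 93.6, 94.3 and 95.2 in that order. Every Smpd1 value lay above every value of the other promoters. The genotypes did not overlap in fold percentile, but the gap between them was under 1 point.

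Cers3, the ceramide synthase gene, followed, with a promoter region at chr7:66743196-66743930. Its folds were 10.7 and 8.44 in WT and 10.7 and 11.5 in Mapk8-KO, at percentiles 78.8, 58.5, 78.9 and 84.5. The spread between the WT libraries was larger than the distance of WT 1 from either Mapk8-KO library.

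Abhd5, which encodes the lipase cofactor, had its promoter region at chr9:122351380-122352161. Folds were 7.31 and 10.4 in WT and 7.41 and 9.89 in Mapk8-KO, at percentiles 50.5, 75.5, 54.1 and 74.4. Here the replicate numbers, and not the genotypes, separated the values. Ugcg, the glucosylceramide synthase gene, had its promoter region at chr4:59188956-59189868. Its folds of 9.67 and 6.77 in WT and 7.36 and 10.7 in Mapk8-KO corresponded to percentiles 72.1, 39.5, 52.8 and 79.9. The highest and the second lowest value were both from Mapk8-KO. Below Smpd1, then, the ranges of Cers3, Abhd5 and Ugcg overlapped one another.

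The promoter regions of the remaining genes ranked lower. That of Pnpla1, the transacylase gene, at chr17:28858308-28858788, had folds of 6.03 and 4.96 in WT and 6.49 and 7.41 in Mapk8-KO, at percentiles 35.3, 14.7, 43.1 and 50.9. Both Mapk8-KO values were above both WT values. Abca12, the lipid transporter gene on the minus strand, had a region over its TSS at chr1:71414656-71415307 with folds of 6.64 and 5.93 in WT and 4.66 and 5.72 in Mapk8-KO. Here both WT values were above both Mapk8-KO values, at percentiles 42.9 and 28.4 against 19.4 and 27.2. The neighbouring region of the same promoter, at chr1:71413139-71413702 and 1208 bp inside the gene, went the other way, at percentiles 48.6 and 49.5 in WT and 57.4 and 56.6 in Mapk8-KO. Another Abca12 region within 2 kb of the TSS, at chr1:71415772-71415996, was called in both replicate 1 libraries only, with 57 fragments in WT 1 and 65 in Mapk8-KO 1.

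The lipoxygenase genes, which lie next to each other on chromosome 11, had weak promoters. That of Aloxe3, at chr11:69125222-69126290, had folds of 5.38 and 5.76 in WT and 5.24 and 4.22 in Mapk8-KO, and ranked between percentiles 6.89 and 27.5. That of Alox12b, at chr11:69156765-69157053, was called in WT 1 (38 fragments, fold 7.50, percentile 52.9) and Mapk8-KO 1 (24 fragments, fold 4.66, percentile 19.4) and in neither shallow library. For Cyp4f39, the fatty acid hydroxylase gene, no region covered the TSS. The nearest, at chr17:32454114-32454437 and 1391 bp inside the gene, had folds of 5.35 and 4.40 in WT and 4.51 and 3.71 in Mapk8-KO, at percentiles 26.4, 8.67, 16.4 and 2.66.

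**Figure D2:**
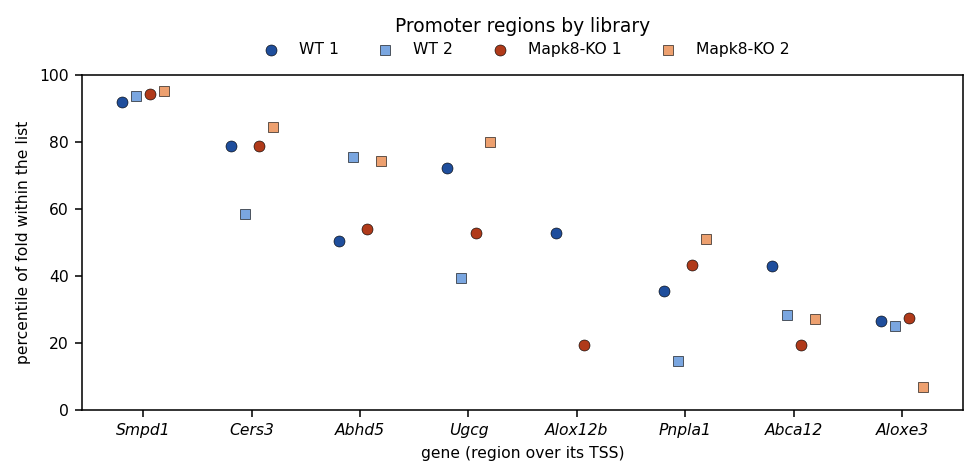
Promoter regions of 8 of the genes, ordered by their mean percentile. Each point is the percentile of the region's fold enrichment within 1 library's list, with no error bar. Smpd1 sits at 91.8 or above in every library, Alox12b has no point from either replicate 2 library, and Cyp4f39 is left out because no region covered its TSS.

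In sequence the promoters fell apart by their CpG content. The regions over the TSS of Ugcg and Abhd5 were 74.9% and 73.0% G or C, with CpG dinucleotides at 1.01 and 1.02 times the number expected from base composition. The other 6 such regions had 0.281 to 0.493 times the expected number. In the 120 bases before the TSS, Ugcg had 18 CpGs and Abhd5 14, against a median of 5 over 21910 coding genes, while Cers3 had 2 and Smpd1 7. By mean percentile the most open promoters, those of Smpd1 and Cers3, were thus not the CpG-rich ones. For Cers3 this order did not hold in every library, since in WT 2 it stood at percentile 58.5 and Abhd5 at 75.5. The 4 promoters with the highest mean percentile are shown for that contrast in CpGs. Each is given as the 120 bases before its TSS on the strand of the gene, with CpGs in capitals. Ugcg is at chr4:59189137-59189256, Abhd5 at chr9:122351488-122351607, Cers3 at chr7:66743384-66743503 and Smpd1 at chr7:105554240-105554359, all on the plus strand:

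Ugcg: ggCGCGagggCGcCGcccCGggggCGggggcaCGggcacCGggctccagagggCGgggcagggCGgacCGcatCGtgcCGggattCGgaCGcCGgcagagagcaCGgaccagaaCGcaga
Abhd5: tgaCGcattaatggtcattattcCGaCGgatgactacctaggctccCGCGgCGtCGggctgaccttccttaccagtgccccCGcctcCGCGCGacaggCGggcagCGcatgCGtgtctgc
Cers3: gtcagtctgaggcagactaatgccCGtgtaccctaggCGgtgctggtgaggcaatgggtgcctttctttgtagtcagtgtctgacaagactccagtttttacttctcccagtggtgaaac
Smpd1: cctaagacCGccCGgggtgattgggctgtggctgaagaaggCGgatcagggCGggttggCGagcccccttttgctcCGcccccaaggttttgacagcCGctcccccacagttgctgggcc

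Motifs were searched on both strands, as TGAGTCA or its complement TGACTCA for AP-1, AACCNGTT for the grainyhead-like (GRHL) factors, CCNCACCC for the KLF family, TTGCNNAA for C/EBP, and the p63 motif. None of the 120-base stretches of the 9 genes held AP-1, which was found in 1.90% of those of all coding genes. None held GRHL (0.648%), C/EBP (3.80%) or p63 (2.46%), and Alox12b alone held KLF (9.75%). These letters are a description of the windows and say nothing of binding.

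Away from the promoters, the most open regions of several genes ranked near the Smpd1 promoter. In Abca12 the strongest was an intronic region at chr1:71370184-71370792, 44.4 kb inside the gene, with 134 and 77 fragments at the summit in WT and 111 and 79 in Mapk8-KO. Its percentiles were 94.6, 88.5, 89.0 and 94.2, so that each genotype had 1 higher and 1 lower value. In Abhd5 an exonic region at chr9:122378803-122379544, 27.6 kb from the TSS, had 80, 59, 77 and 45 fragments in the same order of libraries and stood at percentiles 96.9, 98.3, 97.4 and 94.6.

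Cers3 had an intronic region at chr7:66790016-66790931, 47.0 kb inside the gene, with 91, 48, 79 and 47 fragments and percentiles of 96.6, 88.9, 91.8 and 88.5. The strongest region in its window was, however, the promoter of the neighbour Adamts17 at chr7:66839435-66840144, between percentiles 93.8 and 99. The only other region near Smpd1 that was called in all libraries was likewise a neighbour's promoter, that of Apbb1 at chr7:105581042-105581698, between percentiles 90.2 and 96.6.

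In Cyp4f39 an intronic region at chr17:32462052-32462558, 9.6 kb inside the gene, had folds of 13.2 and 12.8 in WT and 11.9 and 10.1 in Mapk8-KO. Both WT values exceeded both Mapk8-KO values, at percentiles 90.5 and 89.0 against 85.1 and 76.1. For Ugcg the strongest region lay past the gene's end, at chr4:59239343-59240615, with 122, 69, 135 and 78 fragments and percentiles of 73.2, 62.1, 75.6 and 79.7. Pnpla1 had its strongest in an intron at chr17:28874827-28875639, with folds of 10.2 and 7.73 in WT and 10.3 and 9.06 in Mapk8-KO. The Pnpla1 genotypes overlapped. For the Ugcg region both Mapk8-KO percentiles lay above both WT percentiles, by 2.44 points, while its depth-scaled pileups of 102 and 83.4 in WT and 101 and 101 in Mapk8-KO overlapped.

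Alox12b and Aloxe3 shared their strongest region, in an intron of Alox12b at chr11:69160497-69160961, with 40, 32, 48 and 30 fragments and percentiles of 67.6, 72.6, 81.7 and 75.2. This region lay 3.7 kb inside Alox12b, whose own promoter was called in 2 libraries only. An exonic region of Aloxe3 at chr11:69133662-69134638, singled out after its values were seen, varied most in percentile between the libraries that called it. It stood at percentile 81.5 in WT 1 and had no peak in WT 2, against 56.2 and 34.8 in Mapk8-KO. The 2 WT libraries were thus its highest value and its missing call.

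To compare genotypes on one scale, the pileup at each summit was recovered and scaled for depth. The log2 difference of WT minus Mapk8-KO was then tested with limma over the 40159 regions called in all libraries. Of these, 0.214% were called higher in WT and 0.0199% higher in Mapk8-KO at an adjusted p under 0.05. None of the 43 barrier lipid regions was called (0 in either direction), and the smallest adjusted p among them was 0.412. At an unadjusted p under 0.05 there was 1 of 43 (2.33%), against 10.4% of all regions tested.

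The differences were small in both directions. They ran from -0.52 to 0.61 on the log2 scale, and the central 95% of all regions ran from -0.55 to 0.68. WT was higher in 23 of the 43 (53.5%, against 49.3% of all regions). The median difference over the regions was 0.08, and -0.0053 over all regions. On the median pileup per library the genotypes differed by 0.03 (two-sided exact permutation p = 1), a value that turned to -0.00078 with quantile normalization, to -0.02 without WT 1 and to -0.02 over gene bodies alone. In sorted bulk cells, fewer cells with an open site and less opening per cell cannot be told apart. The median absolute difference over the regions was 0.17 between genotypes, 0.21 between both WT replicates and 0.19 between both Mapk8-KO replicates. In 12 regions (27.9%) the genotype difference exceeded both replicate differences, against 26.8% of all regions.

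**Figure D3:**
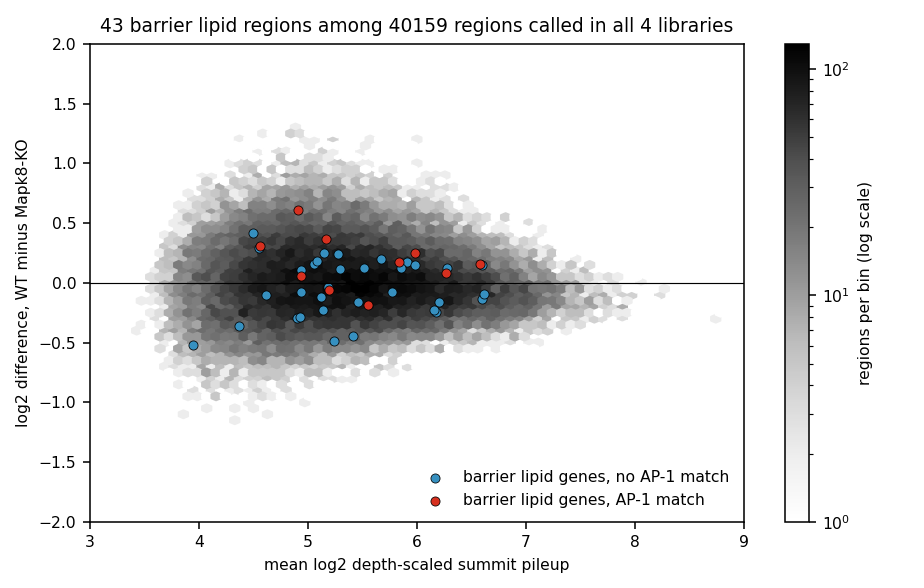
Genotype difference against accessibility. Each coloured point is 1 of the 43 regions of the barrier lipid genes (red with an AP-1 match, blue without), the grey bins count all 40159 regions, the horizontal axis is the mean log2 depth-scaled summit pileup and the vertical axis the log2 difference of WT minus Mapk8-KO. The coloured points lie within the grey cloud, between -0.52 and 0.61.

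The smallest p belonged to an intronic region of Cers3 at chr7:66756964-66757553, 13.8 kb inside the gene. Its depth-scaled pileups were 31.7 and 43.5 in WT and 28.5 and 20.8 in Mapk8-KO. Both WT values were above both Mapk8-KO values, and the log2 difference was 0.61 ± 0.27 (SE, adjusted p = 0.412, limma). It was also the only region of the 43 ranked higher in WT (2.33%, against 2.65% of all regions), meaning that its lowest percentile in WT lay at least 10 points above its highest in Mapk8-KO. The percentiles were 42.1 and 55.9 against 32 and 14.2, a gap of 10.1 points that just passed. With percentiles taken among the common regions alone, where the counts over the atlas became 1868 for WT and 1634 for Mapk8-KO in place of 1066 and 1520, or taken from −log10 p, no region was ranked higher in WT. The region is shown because it holds 2 AP-1 matches, in capitals, within the 201 bases at chr7:66757236-66757436 on the plus strand:

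Cers3 intronic region: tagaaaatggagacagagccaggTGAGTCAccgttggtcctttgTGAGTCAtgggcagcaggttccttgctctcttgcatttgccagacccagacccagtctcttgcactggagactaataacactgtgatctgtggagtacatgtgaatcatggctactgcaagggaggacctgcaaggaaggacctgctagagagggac

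Next came 3 regions higher in Mapk8-KO. The Pnpla1 promoter had depth-scaled pileups of 36.8 and 27.8 in WT and 39.7 and 50.6 in Mapk8-KO, a difference of -0.49 ± 0.25 (SE, adjusted p = 0.488, limma). The Ugcg promoter had 42.6, 31.4, 39.7 and 62.3 in the same order, and -0.44 ± 0.24 (adjusted p = 0.538, limma). Its genotypes overlapped, with WT 1 above Mapk8-KO 1, and Mapk8-KO 2 alone was far above the rest. The promoter of the neighbour Cyp4f17, at chr17:32506152-32507158 in the Cyp4f39 window, had 12.5, 13.3, 16.5 and 20.8, and -0.52 ± 0.31 (adjusted p = 0.580, limma).

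The fifth smallest p was that of the strongest Cyp4f39 region, with depth-scaled pileups of 42.6 and 38.7 in WT and 30.7 and 32.4 in Mapk8-KO and a difference of 0.36 ± 0.25 (SE, adjusted p = 0.642, limma). Its genotypes did not overlap.

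Ranked higher in Mapk8-KO were 2 of the 43 regions (4.65%, against 3.78% of all regions). One was the Cyp4f17 promoter, at percentiles 23.5 and 12.1 in WT and 44.0 and 40.1 in Mapk8-KO. The other was an intronic region of Abca12 at chr1:71390018-71390804, 24.2 kb inside the gene, which stood at percentiles 4.86 and 6.02 in WT and at 27.3 and 33.2 in Mapk8-KO. That gap of 21.3 points was the only one of the 43 that also passed 20 points. Its depth-scaled pileups were 18.4, 18.1, 20.2 and 27.2 and its log2 difference was -0.36 ± 0.30 (SE, adjusted p = 0.716, limma). A single library decided how many regions passed, since 10 ranked higher in Mapk8-KO without WT 1 and 5 without Mapk8-KO 1, and 9 ranked higher in WT without Mapk8-KO 1. The 201 bases around the strongest summit of the Abca12 region, chr1:71390574-71390774 on the plus strand, hold 1 KLF match, in capitals:

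Abca12 intronic region: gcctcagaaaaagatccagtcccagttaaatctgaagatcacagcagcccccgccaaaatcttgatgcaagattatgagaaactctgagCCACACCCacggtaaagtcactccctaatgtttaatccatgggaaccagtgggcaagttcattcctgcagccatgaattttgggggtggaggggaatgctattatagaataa

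Without regard to size, the depth-scaled pileups of the genotypes did not overlap in 13 regions with WT higher (30.2%) and in 6 with Mapk8-KO higher (14.0%). Over all regions the share was 20.3% with WT higher and 20.3% with Mapk8-KO higher. Of the 13, 3 lay in the window of Abca12, 3 in that of Cers3, 3 in that of Abhd5, 2 in that of Cyp4f39, 1 in that of Ugcg and 1 beside Alox12b. The 6 were 2 of Abca12, 2 of Pnpla1, 1 of Ugcg and the Cyp4f17 promoter.

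AP-1 matches within 100 bases of the strongest summit were found in 18 of the 75 regions (24.0%, against 23.8% of the atlas) and in 10 of the 43 called in all libraries (23.3%, against 24.5%). Of the other motifs, GRHL was found in 1.33% of the 75 regions (3.17% of the atlas), KLF in 20% (14.2%), C/EBP in 8.00% (11.4%) and p63 in 8.00% (8.78%). Ugcg and Smpd1 had no AP-1 region among those called in all libraries, while Cers3 had 3, Abca12 2 and Abhd5 2.

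Of the 10 AP-1 regions, 8 were higher in WT, and the share over all AP-1 regions was 68.0%. Their median log2 difference was 0.17, against 0.13 for all AP-1 regions. The median of the other barrier lipid regions was -0.08, against -0.05 for all regions without the motif. The pileups did not overlap, with WT higher, in 6 of the 10 (60%, against 32.6% of all AP-1 regions), and with Mapk8-KO higher in 1 (10.0%, against 10.9%). This is a description of 10 regions assigned to 6 genes, and none was called by limma. The Alox12b region among them also lay in the window of Aloxe3. The matches are shown with the 11 bases on either side, on the plus strand and with the motif in capitals, 1 match per region, ordered from the highest to the lowest log2 difference:

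Cers3 intron, chr7:66757269-66757297: ttggtcctttgTGAGTCAtgggcagcagg
Cyp4f39 intron, chr17:32462294-32462322: acgcctagaacTGAGTCAcacacatcact
Cers3 upstream, chr7:66735199-66735227: gcttgaatgtgTGAGTCActgggctggct
Abhd5 exonic region, chr9:122379156-122379184: tgtcccagtagTGAGTCAcctttctgagg
Cers3 intron, chr7:66747054-66747082: agatttgaatgTGAGTCActgtttcctgc
Abca12 intron, chr1:71398364-71398392: gtgatacacagTGAGTCAgcgcatgctac
Abca12 intron, chr1:71396319-71396347: ccaacaaatgaTGAGTCAtgccacgtcac
Abhd5 upstream, chr9:122337621-122337649: tgctccaaggaTGACTCAgaggcagtgtc
Alox12b intron, chr11:69160732-69160760: gcagggagaccTGAGTCAtctgctgggcc
Pnpla1 upstream, chr17:28855674-28855702: aatagctttgcTGACTCAccctccagcca

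The log2 differences of these regions were 0.61, 0.36, 0.31, 0.25, 0.17, 0.16, 0.08, 0.06, -0.06 and -0.19 from first to last. The lowest lay 2055 bp from the Pnpla1 TSS, in an exon of the antisense transcript Pnpla1os, and had depth-scaled pileups of 46.8 and 41.1 in WT and 49.4 and 50.6 in Mapk8-KO. Thus the AP-1 region and the promoter of Pnpla1 were both higher in Mapk8-KO, in pileup, in all library pairs.

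The genes' own promoter regions were close to the atlas in direction. Of the 9 called in all libraries, 6 had a higher mean in Mapk8-KO, against 65.4% of all promoter regions, and the median log2 difference was -0.10, against -0.09. The pileups of the genotypes did not overlap in 2 of the 6, the Pnpla1 promoter and the Abca12 region 1208 bp inside the gene. They also did not overlap, with WT higher, in the region over the Abca12 TSS and in the Cyp4f39 region 1391 bp inside the gene. The share over all promoter regions was not computed, and over all regions it was 20.3% in either direction.

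Summed over the regions called in all libraries, the depth-scaled pileup of a gene gave a single value per library. In these sums the difference of Pnpla1 was the largest of the 9 genes, with sums of 115 and 91.9 in WT and 118 and 139 in Mapk8-KO. Both Mapk8-KO sums were above both WT sums, and the log2 difference was -0.32 (two-sided exact permutation p = 0.33, the smallest possible). The Pnpla1 sum rested on 3 regions, all with a higher mean in Mapk8-KO. The difference shrank to -0.09 without Mapk8-KO 2 and to -0.14 without WT 2, where it was no longer the largest (Abhd5 had 0.16 and Cyp4f39 0.22 there), and it grew to -0.48 without WT 1.

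Ugcg was also higher in both Mapk8-KO libraries, by a small margin, with sums of 291 and 254 in WT and 292 and 293 in Mapk8-KO (log2 difference -0.11, exact permutation p = 0.33). Without WT 2 the Ugcg difference turned to 0.02. Abhd5 was higher in both WT libraries, with 272 and 296 against 250 and 266 (0.14, exact permutation p = 0.33). For the other 6 genes the genotypes overlapped. Abca12, the gene with the highest sum, had 510 and 488 in WT and 464 and 493 in Mapk8-KO (0.06). Cers3 had 398 and 343 against 366 and 358 (0.03). Cyp4f39 had 301 and 230 against 253 and 262 (0.03), so its WT libraries lay on either side of Mapk8-KO.

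Smpd1 had sums of 151 and 160 in WT and 156 and 158 in Mapk8-KO (-0.02). The lipoxygenase genes had low sums, Aloxe3 with 124 and 141 against 124 and 130 (0.07), and Alox12b with 56.0 and 68.9 against 56.9 and 57.1 (0.12). After adjustment over the 9 genes every p was 1. A sum grows with the number of regions behind it, which ran from 2 for Alox12b and Smpd1 to 8 for Abca12, so it compares libraries and not genes.

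**Figure D4:**
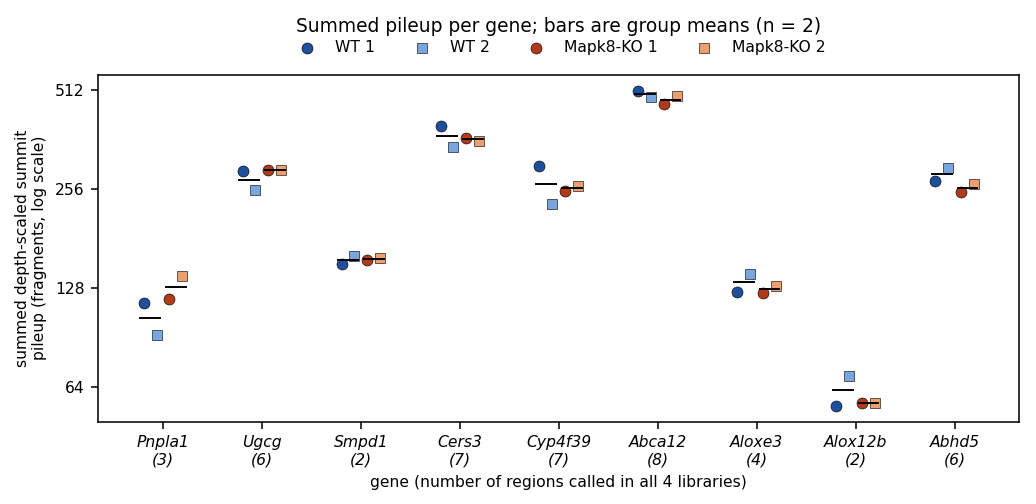
Summed depth-scaled summit pileup of each gene, in fragments on a log2-spaced axis, over the regions called in all 4 libraries (their number in brackets). Points are libraries and bars the means of the 2 libraries of a genotype. Genes run from Pnpla1, the most Mapk8-KO-high at -0.32 log2, to Abhd5, the most WT-high at 0.14.

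A wider list of 23 genes of ceramide and barrier lipid metabolism was counted in the same way. It gave 225 regions, of which 131 were called in all libraries. None of these was called by limma (0 of 131, smallest adjusted p 0.118), 9 (6.87%, against 10.4% of all regions) had an unadjusted p under 0.05, and the median log2 difference was -0.02. Of the 225, 7 were WT-specific (3.11%, against 2.17% of the atlas) and 2 Mapk8-KO-specific (0.889%, against 1.65%). Pileups did not overlap in 23 regions with WT higher (17.6%) and 18 with Mapk8-KO higher (13.7%), against 20.3% in either direction over all regions.

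The 7 WT-specific regions lay near 5 genes. Sptlc3, a subunit of the enzyme that starts sphingolipid synthesis, had 2 intronic ones, with 16 and 12 fragments at chr2:139544041-139544375 and 24 and 17 at chr2:139591283-139591706. Degs2, which encodes an enzyme that makes phytoceramides, also had 2, with 46 and 37 fragments in an intron at chr12:108678541-108678805 and 21 and 15 at chr12:108712629-108713399. Single WT-specific regions lay near Elovl1, an elongase of very long fatty acids (19 and 16 fragments), near Nipal4, a gene of inherited ichthyosis (24 and 15 fragments), and in the window of the fatty acid hydroxylase gene Fa2h (19 and 17 fragments, closest to a TSS of Mlkl). Elovl1 was singled out in the study on these same libraries, so its region is not independent evidence of a direction. The Mapk8-KO-specific ones were intronic, in Fa2h (13 and 10 fragments) and in Sgms1, a sphingomyelin synthase gene (35 and 22 fragments).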

How the data were processed

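The authors mapped paired reads to mm10 with Bowtie2, discarded reads that aligned ambiguously or poorly, and ran MACS2 on each library alone, with no control, at a q threshold of 0.05, per the study's methods. The deposited lists give a score, a ratio (fold of the summit pileup over local background), −log10 p, −log10 q and the summit's offset. Peak names state that mitochondrial reads were taken out, and no Tn5 shift is stated.

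Peaks overlapping by 1 bp were merged. TSSs (77237) came from the GENCODE basic annotation of mm10, and sequences from the mm10 genome. Summit pileups were solved from the deposited fold and −log10 p values, and at least 99.996% of peaks per list gave whole numbers to within 0.05. Log2 pileups, centred for depth over regions called in all 4 libraries, were tested with limma 3.58.1 (R 4.3.3) using a variance trend and the Benjamini-Hochberg adjustment, the code being tested on simulated data. Single values were compared by exact permutation tests over all assignments of libraries to genotypes, and scipy 1.17.1 gave the adjustment over genes. The DESeq2 test of the study needs read counts, which were not used here. Intervals of counting were not given, because the total reads are unknown from the lists and pileups of fragments without molecular identifiers are not independent molecules.

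The members and lists were chosen with earlier results of these data known. Named regions were each gene's promoter regions, its strongest distal region, every genotype-specific region, every region past the rank gap, and the 5 with the smallest limma p. Genes of the wider list were named where a region was specific or called, and under the other observations also after their values were seen. Alternatives varied the q threshold, list length, cover, window, percentile, rank gap, normalization, GC, the replicate block and the libraries. One marker gene is not reported here.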

Additional observations from a re-analysis of the deposited data

How the results depend on the processing

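Of 73 alternative values for the counts and the median, 38 kept their direction (counts of regions stayed within 1.5 times), 28 moved and 7 reversed or fell to 0. Of 90 for the sums of single genes, 80 kept their direction and 10 reversed. The replicate block is counted among the alternatives that kept their direction, although it cannot change the median or a gene sum. The difference in regions called per library (4) was 7 at a cover of 50%, -0.5 over gene bodies alone and 0 by nearest TSS, and ran from -4.5 (without Mapk8-KO 2) to 12.5 (without Mapk8-KO 1) when 1 library was left out. WT-specific regions (1) numbered 3 in lists of equal length and 0 at a cover of 50%, over gene bodies alone and by nearest TSS, with 1 to 9 when 1 library was left out (9 without Mapk8-KO 1, 5 without WT 2, 4 without WT 1). Mapk8-KO-specific regions (0) numbered 1 at q 0.001, 2 in lists of equal length, 1 at a cover of 50% and 1 with 50 kb windows, with 0 to 5 when 1 library was left out (5 without WT 1, 3 without Mapk8-KO 2). Regions ranked higher in WT (1) numbered 4 at a gap of 5 points and 0 at 20 points, among common regions or by −log10 p, and 1 to 9 when 1 library was left out (9 without Mapk8-KO 1). Those ranked higher in Mapk8-KO (2) numbered 4 at 5 points and 1 at 20 points, among common regions, over gene bodies and by nearest TSS, and 2 to 10 when 1 library was left out (10 without WT 1, 5 without Mapk8-KO 1). The median difference per library (0.03) was -0.00078 with quantile normalization and -0.0219 over gene bodies, and ran from -0.0193 (without WT 1) to 0.0920 (without WT 2). Among gene sums, log2 fold in place of pileup gave -0.0308 for Abca12, -0.0376 for Alox12b and -0.0764 for Cyp4f39, GC correction gave -0.0281 for Abca12 and 0.0791 for Smpd1, and gene bodies alone gave -0.0569 for Alox12b. When 1 library was left out, the sum difference ran from -0.0733 (without WT 1) to 0.147 (without WT 2) for Cers3, from -0.0422 (without WT 2) to 0.0269 (without WT 1) for Smpd1, from -0.162 (without WT 1) to 0.222 (without WT 2) for Cyp4f39, from -0.477 (without WT 1) to -0.0894 (without Mapk8-KO 2) for Pnpla1 and from -0.201 (without WT 1) to 0.0243 (without WT 2) for Ugcg. The cause of these changes was not tested.

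Limma called 0 member regions in all 12 settings, with a smallest adjusted p of 0.064 (without Mapk8-KO 1) to 0.871 (without Mapk8-KO 2), where a lone library is assumed to vary like the other group. Over all regions it called 94, against 309 with the replicate block, 29 with quantile normalization, 154 with GC correction, 0 without a variance trend (3898 at an unadjusted p under 0.05), 0 on log2 fold (2698 at an unadjusted p under 0.05), and 13 (without WT 2) to 1947 (without Mapk8-KO 1) when 1 library was left out. The replicate differences of the genotypes correlated at r = 0.039 across regions. Replicate 2 was nonetheless the shallower library of each genotype, and whether the replicate numbers mark a shared batch was not tested. With the replicate block the smallest adjusted p was 0.350 (limma), and the ranked regions stayed at 1 and 2. The median difference of 0.0326 cannot change under that block, because each replicate pair holds 1 library of each genotype. Differences near the spread between 2 libraries were not detectable at this depth and number of libraries.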

Other observations

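Of the 23 genes of the wider lipid list, 18 had a promoter region called in all 4 libraries, and Sgms2 had none in any library. The same share over all coding genes was not computed, so this count has no background. The median percentile over the list's promoter values was 68.0. That value takes the highest region of each gene in each library, which raises it, and it too has no background. The genes named here were picked out after their values were seen. The Smpd3 promoter stood at percentiles 94.2 and 98.1 in WT and 98.3 and 97.0 in Mapk8-KO, and the Sptlc3 promoter at 96.1 and 98.3 in WT and 90.5 and 96.8 in Mapk8-KO. Slc27a4, which encodes a fatty acid transporter, and the ceramidase gene Asah1 stood between 80.8 and 97.6. In all 4 genes the genotypes overlapped.

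The region over the TSS of the basal keratinocyte marker Krt14, at chr11:100207510-100207834, differed between genotypes. Its summit held 36 fragments in WT 1, no peak overlapped it in WT 2, and the Mapk8-KO libraries had 199 and 109. The folds were 4.35, 15.5 and 14.6, at percentiles 12.9, 96.3 and 96.0. The Cre recombinase of the Mapk8-KO mice is driven by a keratin 14 promoter, per the study's methods. Whether sequence of the transgene adds to these fragments was not tested. It was singled out after its values were seen, and a Krt14 region 793 bp from the TSS had 38 fragments in WT 1, 17 in WT 2 and 33 in Mapk8-KO 1, with no peak in Mapk8-KO 2.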
